A study of Solanum lycopersicum with 9 samples.

Results

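RIN and NOR are transcription factors that act in the ripening of tomato fruit. They were followed here in red ripe fruit with and without silencing of Asr1, a gene named for abscisic acid, stress and ripening. Members were all probe sets (groups of array probes read as 1 value) whose gene symbol in the platform annotation was RIN or NOR. They were 2 of the 802 genes with a symbol, each with 1 probe set among the 10038 tested: RIN (Entrez gene 543708) and NOR (Entrez gene 778200). The rule used names only, not measured values.

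Fruit came from tomato (Solanum lycopersicum, cv Money Maker) grown in a greenhouse with 16 h of light and 8 h of darkness. The wild-type group (WT) carried no antisense construct, and lines AS5 and AS17 carried an antisense construct against Asr1, whose promoter is not given in the sources used here. Each group had 3 pools of mesocarp, the flesh of the fruit, and each pool was read on 1 array. The design text gives 2 fruits to a pool and 3 plants to a line, so each n is a number of pools, and 2 lines stand for silenced plants. All groups were sampled at the same labelled stage, red ripe. Asr1 itself carried no symbol in the annotation used, so its own level, and with it the degree of silencing, was not analysed here.

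RIN is a MADS box protein and NOR a NAC domain protein, and both act high in the regulation of ripening. In the tomato mutants rin and nor, fruit reach full size but largely fail to make ripening ethylene, redden or soften. RIN is known to bind the promoters of many genes for ethylene synthesis, pigment, softening and aroma, often together with other MADS box proteins. The comparison of their transcripts bears on whether silenced and wild-type fruit were at the same ripening stage, but cannot settle it. All pools carry the same stage label, so the data do not show how far either transcript moves between stages.

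RIN transcript was abundant in every pool and differed little between them. Values are the deposited log2 expression values, on which a step of 1 is a doubling of signal. RIN stood at 9.93, 9.96 and 10.01 in WT pools 1, 2 and 3. It stood at 10.09, 10.05 and 9.91 in AS5 pools 1, 2 and 3, and at 10.05, 9.99 and 9.59 in AS17 pools 1, 2 and 3. The lowest pool was AS17 pool 3 and the highest AS5 pool 1, 0.50 apart over all 9 arrays, and the ranges of the 3 groups overlapped. Every value lay at least 7.95 log2 units above the background level of its array, which was set by probe sets for reporter genes.

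Group means of RIN were 10.02 ± 0.10 in AS5, 9.97 ± 0.04 in WT and 9.88 ± 0.25 in AS17 (SD, n = 3 each). No neighbours in this order differed beyond their spread. Both lines together had a change of -0.02 against WT (SE 0.12, 95% interval -0.29 to 0.25, limma adjusted p = 0.964). That interval reaches from 1.22-fold lower to 1.19-fold higher in silenced fruit. AS5 alone had a change of 0.05 (SE 0.14, 95% interval -0.26 to 0.36, adjusted p = 0.939) and AS17 alone one of -0.09 (SE 0.14, 95% interval -0.40 to 0.22, adjusted p = 0.794). Both lines were set against the same WT arrays. The sign in AS17 rests on pool 3, without which the change was 0.05 (adjusted p = 0.886), and that of both lines together became 0.05 without it (adjusted p = 0.836).

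NOR transcript varied more between pools than RIN did, and its groups overlapped as well. It stood at 8.80, 8.61 and 8.85 in WT pools 1, 2 and 3. It stood at 8.38, 9.03 and 8.80 in AS5 pools 1, 2 and 3, and at 8.11, 8.87 and 8.74 in AS17 pools 1, 2 and 3. The lowest pool was AS17 pool 1, the highest AS5 pool 2, and they were 0.92 apart. All 9 values were at least 6.50 log2 units above background. For both genes, the 3 WT pools lay inside the range of AS5 and inside that of AS17.

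**Figure D1:**
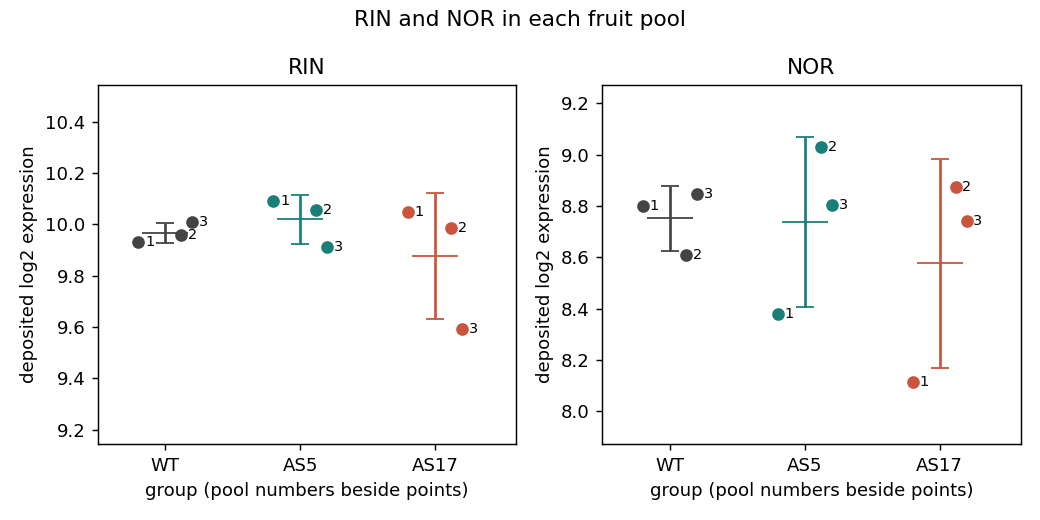
Deposited log2 expression (vertical axis, spanning the same number of units in both panels) of RIN and NOR in 3 pools each of WT, AS5 and AS17. Points are pools with their numbers, and bars show mean ± SD; AS17 pool 3 is lowest for RIN at 9.59, AS17 pool 1 is lowest for NOR at 8.11, and all groups overlap.

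Group means of NOR were 8.75 ± 0.13 in WT, 8.74 ± 0.33 in AS5 and 8.58 ± 0.41 in AS17 (SD, n = 3 each), and again no neighbours differed beyond their spread. Both lines together had a change of -0.09 against WT (SE 0.20, 95% interval -0.54 to 0.35, limma adjusted p = 0.873), an interval from 1.46-fold lower to 1.28-fold higher. AS5 had a change of -0.01 (SE 0.23, 95% interval -0.53 to 0.50, adjusted p = 0.993) and AS17 one of -0.18 (SE 0.23, 95% interval -0.69 to 0.34, adjusted p = 0.753). The lower mean of AS17 rests on pool 1, without which the change was 0.06 (adjusted p = 0.916). Without that pool the change of both lines together was 0.02 (adjusted p = 0.966).

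Between the lines, RIN was 0.14 lower in AS17 than in AS5 by the means (difference -0.14, SE 0.14, 95% interval -0.45 to 0.17, limma adjusted p = 0.933). NOR differed by -0.16 (SE 0.23, 95% interval -0.68 to 0.36, adjusted p = 0.963). An exact permutation test over pools, two-sided, gave p = 0.917 for RIN and p = 0.702 for NOR for both lines against WT, where the smallest p possible is 0.0119. For 3 pools against 3, the smallest two-sided p is 0.10, so that test could not pass a threshold of 0.05 for a single line.

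**Figure D2:**
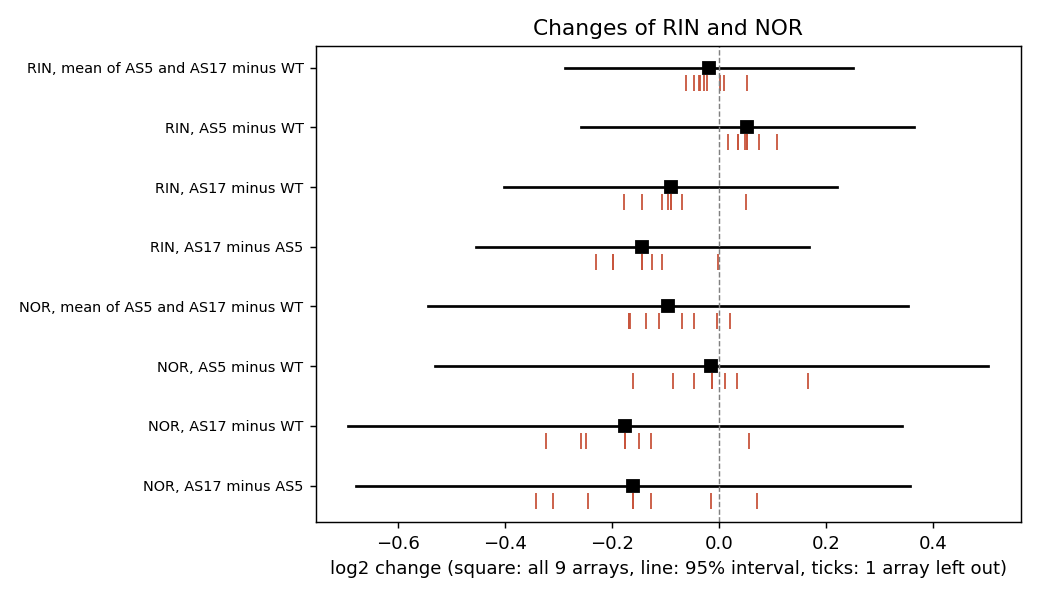
Log2 change of RIN and NOR in 4 contrasts (horizontal axis). Squares are changes over all 9 arrays, lines their 95% intervals and red ticks the change with 1 array left out; every interval covers 0, and NOR in AS17 against WT moves from -0.18 to 0.06 without AS17 pool 1.

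Over all tested probe sets, 1.28% passed an adjusted p under 0.05 for both lines against WT, 0.379% for AS5, 1.34% for AS17 and 0% between the lines. Neither RIN nor NOR was among them in any contrast, and 0 of both had an unadjusted p under 0.05, which 15.5% of probe sets had for both lines against WT, 9.24% for AS5, 17.3% for AS17 and 5.89% between the lines. With so low a share of calls, 0 of 2 members is near the background share. Arrays of both silenced lines did not overlap with WT for 9.06% of probe sets, and those of AS17 alone for 21.6%. By size, 7.60% of probe sets had a smaller absolute change than RIN for both lines against WT, and 35.1% a smaller one than NOR. The spread among pools of a group was 0.15 for RIN and 0.31 for NOR (residual SD), and 27.7% and 75.6% of probe sets had a smaller one, so the interval for NOR is the wider. In fruit flesh as a whole, fewer cells of a type and less RNA per cell cannot be told apart.

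AS5 pool 3 and AS17 pool 1 stood apart from the other 7 arrays over all probe sets, at 33.4 and 35.0 on the first principal component (40.05% of the variance) against -27.2 to 12.5. Signal at the 3′ end minus the 5′ end of a control is a sign of RNA quality. A smaller value means less loss of signal at the 5′ end. For gapdh it was 0.619 in AS5 pool 3, 0.550 in AS17 pool 1 and 0.830 to 1.06 in the others. For ubiquitin it was 1.116 and 1.365 in the same order, and 1.410 to 1.749 in the others. NOR in AS17 pool 1 was the lowest of all, while NOR in AS5 pool 3, at 8.80, lay among the WT pools. RIN in these arrays, 9.91 and 10.05, lay within the range of the others. With both left out, RIN had a change of -0.03 for both lines against WT (adjusted p = 0.903) and NOR one of 0.0044 (adjusted p = 0.994). Their part in the levels of NOR was not tested.

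RIN and NOR did not rise and fall together from pool to pool. Their values correlated at r = -0.23 and rho = -0.05 over the 9 arrays, and at r = -0.06 and rho = 0.11 over 7 without AS5 pool 3 and AS17 pool 1. These are descriptions of points that share array processing. AS17 pool 3, lowest for RIN, was near the WT mean for NOR, and AS17 pool 1, lowest for NOR, was above every WT pool for RIN.

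The named genes whose pattern across the 9 arrays was most like that of RIN, among 623 named probe sets above background on all arrays, were ER21 (r = 0.921), the ethylene receptor gene ETR1 (r = 0.896), BI-1, a Bax inhibitor (r = 0.878), LOC544026 (r = 0.877) and THOX2 (r = 0.873). That likeness rests on AS17 pool 3. Without it, a setting chosen after seeing the data, r fell to 0.602 for ER21, 0.186 for ETR1, 0.342 for BI-1, 0.266 for LOC544026 and 0.623 for THOX2. Spearman's rho over all arrays lay between 0.45 and 0.74 for these genes.

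Most like NOR was a probe set of Psy1, the phytoene synthase gene of fruit (r = 0.904). It was followed by GPI1 (r = 0.880), LOC543663 (r = 0.837), SCOA, a succinyl-CoA ligase subunit (r = 0.834), and mMDH1, a mitochondrial malate dehydrogenase (r = 0.824). Without AS17 pool 1, r was 0.759 for this Psy1 probe set, 0.705 for GPI1, 0.677 for LOC543663, 0.806 for SCOA and 0.624 for mMDH1. Spearman's rho over all 9 arrays was 0.73 for the Psy1 probe set, 0.68 for SCOA and 0.57 for mMDH1, but 0.37 for GPI1 and 0.28 for LOC543663, so the likeness of the last pair depends on the measure. The Psy1 probe set had a level of 5.36 ± 0.15 in WT (SD, n = 3). The brightest probe set of Psy1 was not among the 5 most alike.

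Other transcription factors of ripening and their relatives came from a list with 10 named genes besides RIN and NOR, and 0 of the 10 passed in limma for both lines against WT (background 1.28%). By an unadjusted p under 0.05, 2 did (AG1 and TDR8), against 15.5% of all probe sets. The median change of the list was -0.09, and that of all probe sets 0.0037. Of these genes, 7 belong to the MADS box family of RIN, and NAC1 to the NAC family of NOR.

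TDR4, a FRUITFULL-type MADS box gene whose protein is known to pair with RIN in tomato, was the steadiest of these relatives. Its WT pools stood at 10.85, 10.83 and 10.92, the AS5 pools at 10.73, 10.83 and 10.71 and the AS17 pools at 10.77, 10.82 and 10.78. For both lines the change was -0.09 (SE 0.08, limma adjusted p = 0.642), with the groups meeting at AS5 pool 2. TAGL1, an AGAMOUS-like gene needed for fruit expansion and ripening, had a change of 0.05 (SE 0.13, adjusted p = 0.919), from 8.08 ± 0.12 in WT (SD, n = 3). LOC543885, whose synonyms are TM5 and LeSEP3, belongs to the SEPALLATA group as RIN does, and its change was -0.17 (SE 0.14, adjusted p = 0.612).

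MADS1, reported in tomato as a repressor of ripening, had a change of -0.21 (SE 0.16, limma adjusted p = 0.573). AG1, the AGAMOUS gene of floral organ identity, had the widest negative estimate, -0.88 (SE 0.38, adjusted p = 0.308). AG1 stood at 9.07, 9.36 and 8.06 in WT pools, 7.97, 8.52 and 7.41 in AS5 and 7.78, 8.64 and 7.37 in AS17, so the groups overlapped. With pool number as a block it passed at the same size (adjusted p = 0.0449). Pools of the same number are not known to share more than that number. TDR8, a MADS box gene, had a change of 0.64 (SE 0.20, adjusted p = 0.184), and TDR6, of the class that sets petal and stamen identity, one of -0.26 (adjusted p = 0.632).

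Outside the MADS box family, NAC1 was at 4.07 ± 0.32 in WT, 4.94 ± 0.53 in AS5 and 4.78 ± 1.30 in AS17 (SD, n = 3 each), a change of 0.79 (SE 0.49, limma adjusted p = 0.491). Its values were highest in AS17 pool 1 (6.13) and AS5 pool 3 (5.50), the arrays that stood apart. VAHOX1, a homeobox gene, and ERF-H1, an ethylene-response factor gene, had changes of -0.02 and -0.08 (adjusted p = 0.980 and 0.878). ERF-H1 was near background, at 1.58 to 2.32, and on its closest array only 0.0054 log2 units above it.

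**Figure D3:**
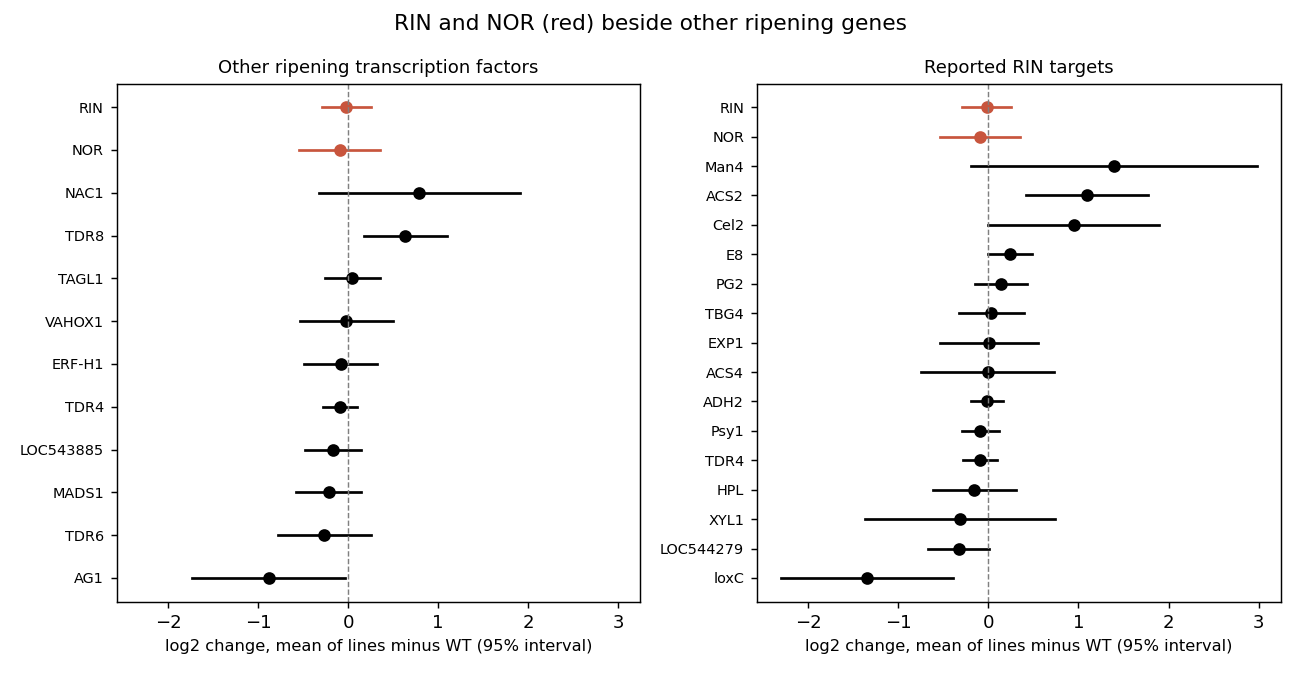
Log2 change for both silenced lines against WT (horizontal axis) with 95% intervals, for RIN and NOR in red and, in black, 10 other transcription factors (left) and 15 reported RIN targets (right). Both regulators lie near 0, at -0.02 and -0.09, and the intervals of Man4 and XYL1 are wider than theirs. The intervals, which are not adjusted for the number of tests, leave out 0 for AG1, TDR8, ACS2, Cel2 and loxC. Each gene is shown by its brightest probe set, and no probe set shown passed the adjusted test.

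Reported RIN targets in tomato had 15 named genes, all above background on all 9 arrays. Each gene was read by its brightest probe set. None of the 15 passed in limma for both lines against WT, in AS5 or in AS17, against backgrounds of 1.28%, 0.379% and 1.34%. With an unadjusted p under 0.05 there were 3 for both lines, where 15.5% of all probe sets had one. The median change of the targets was -0.01, beside 0.0037 for all probe sets, with 7 of 15 estimates above 0. For 1 of 15 (6.67%, against 9.06% of all probe sets) the silenced pools did not overlap with WT.

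The 6 targets with the highest WT signal were taken by the naming rule, and signals of different probe sets do not rank their transcripts. ADH2, an alcohol dehydrogenase of flavour formation, was at 12.35 ± 0.02 in WT, 12.30 ± 0.03 in AS5 and 12.36 ± 0.02 in AS17 (SD, n = 3 each). The brightest Psy1 probe set was at 12.12 ± 0.02, 12.06 ± 0.07 and 12.003 ± 0.12, and PG2, the polygalacturonase that breaks down pectin, at 12.002 ± 0.18, 12.11 ± 0.21 and 12.17 ± 0.12. E8, an ethylene-responsive ripening gene, was at 11.71 ± 0.09, 11.98 ± 0.14 and 11.92 ± 0.16. TDR4 is described above, and EXP1, the ripening expansin that loosens cell walls, was at 10.61 ± 0.17, 10.34 ± 0.26 and 10.89 ± 0.60. For both lines against WT, limma's changes were -0.02 for ADH2, -0.09 for Psy1, 0.14 for PG2, 0.24 for E8 and 0.01 for EXP1 (adjusted p from 0.336 to 0.995). The highest value of any probe set on an array was 12.82 to 12.88 in WT and 12.53 to 12.64 in the silenced lines. That array-level difference follows the groups compared. ADH2 lay between 12.28 and 12.38 on all arrays. Whether such bright signals were near a ceiling was not tested.

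Psy1 had 2 further probe sets, whose values differed. The one most like NOR had a change of -0.11 (adjusted p = 0.851). The other, singled out after its values were seen, stood at 1.40, 2.37 and 1.55 in WT pools, near background. In the silenced pools it stood from 4.33 to 7.52. Its change for both lines was 3.82 (SE 0.71, limma adjusted p = 0.0421). Neither line passed alone, with 3.92 in AS5 (adjusted p = 0.127) and 3.72 in AS17 (adjusted p = 0.0707). This probe set was not followed under the other settings. It is not in the list counts, which use the brightest probe set of each gene. Its highest values, 7.52 and 6.90, were those of AS17 pool 1 and AS5 pool 3, the arrays that stood apart, and the other 4 silenced pools lay between 4.33 and 5.16. Which Psy1 transcripts these probe sets read was not tested.

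In ethylene synthesis and response, 0 of 15 genes passed in limma for both lines, where 1.28% of all probe sets did. An unadjusted p under 0.05 was found for 1 of 15, beside 15.5% of all probe sets. ACS4, an ethylene synthesis gene of ripening, was at 9.91 ± 0.30 in WT, 9.89 ± 0.79 in AS5 and 9.92 ± 0.42 in AS17 (SD, n = 3 each). ACS1A was at or below background on all 9 arrays and ACS6 on 7; both are known for the ethylene of unripe fruit. The receptor gene LOC544279, whose synonym is ETR3 and which is mutated in the tomato mutant Never-ripe, had a change of -0.33 (SE 0.15, adjusted p = 0.336). ETR4, another receptor gene, and the response factors EIL1 and EIL2 had changes of -0.11, 0.04 and -0.03 (adjusted p from 0.667 to 0.946).

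Pigment genes numbered 5 in the annotation, and by the brightest probe set of each, 0 passed in limma for both lines (background 1.28%). The further Psy1 probe set that did pass is described above. PDS, the phytoene desaturase gene, stood at 8.03, 7.86 and 7.63 in WT, at 7.43, 7.51 and 7.14 in AS5 and at 6.95, 7.56 and 6.84 in AS17. All 6 silenced pools were below the WT pools, where 9.06% of all probe sets had no overlap between silenced pools and WT. The change was -0.60 (SE 0.18, limma adjusted p = 0.159). PDS was the 1 of 5 pigment genes with an unadjusted p under 0.05, beside 15.5% of all probe sets. Against WT, AS17 passed for PDS only with AS17 pool 2 left out, among the fits run (change -0.95, adjusted p = 0.0484). ZDS, the next desaturase of the pathway, had a change of -0.08, LCY1, a lycopene cyclase, 0.28 and NSY, whose synonym is Cyc-B, -0.06 (adjusted p from 0.720 to 0.946).

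Softening genes numbered 10, with 0 past the limma threshold for both lines (1.28% of all probe sets passed). An unadjusted p under 0.05 was found for 2 of 10, beside 15.5% of all probe sets, which is near the background share. Beside PG2 and EXP1, the brightest in WT were XTH5, a xyloglucan-modifying gene, with a change of -0.29 (adjusted p = 0.542), and PME2.1, a pectin methylesterase, with -0.28 (adjusted p = 0.611). TBG4, a beta-galactosidase of ripening fruit, had a change of 0.03 (SE 0.16, adjusted p = 0.952). Man4, an endo-mannanase, stood at 8.22, 5.59 and 9.15 in WT pools 1, 2 and 3 and from 7.81 to 9.67 in silenced pools. The 5.59 of WT pool 2 was below every other array, and the estimate of 1.39 (SE 0.70) did not pass (adjusted p = 0.383).

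Photosynthesis genes of green fruit, whose transcripts fall as fruit ripen, were represented by 5 named genes. For both lines, 0 passed in limma (background 1.28%), and 0 had an unadjusted p under 0.05, beside 15.5% of all probe sets. In AS17 alone, 0 passed, and 2 had an unadjusted p under 0.05 (CAB4 and CAB6A), beside 17.3% of all probe sets. The list as first drawn up also held TAGL1, a ripening factor described above, which was taken out after the data were seen and did not pass either. CAB4 and CAB6A, light-harvesting chlorophyll-binding protein genes, had changes of 0.56 (SE 0.30) and 1.17 (SE 0.53), with adjusted p = 0.423 and 0.334. CAB6A stood at 3.58, 4.41 and 3.72 in WT, 4.23, 3.88 and 5.98 in AS5 and 5.80, 4.34 and 6.22 in AS17. It was thus high in AS5 pool 3, AS17 pool 1 and AS17 pool 3 and overlapped with WT in the other silenced pools. CAB5 was above background on 2 of 9 arrays. PSBO, of the oxygen-evolving complex, had a change of -0.89 (SE 0.39, adjusted p = 0.327) and LOC543978, whose synonym is psaD, one of -0.33 (adjusted p = 0.524).

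**Figure D4:**
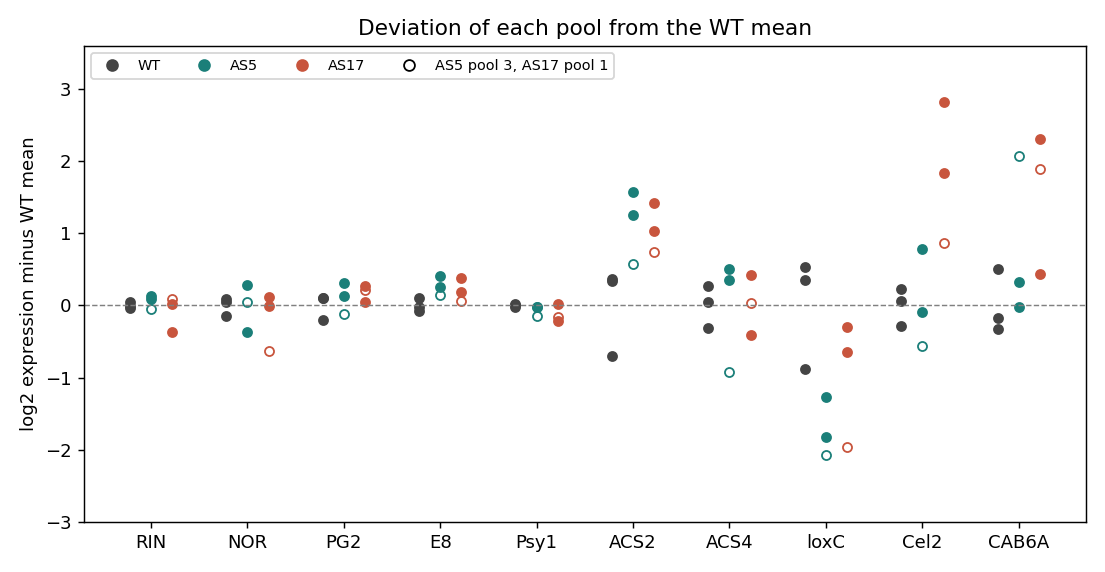
Log2 expression of each pool minus the WT mean (vertical axis) for RIN, NOR and 8 genes of ripening or of green fruit (horizontal axis), with WT, AS5 and AS17 in separate colours and open symbols for AS5 pool 3 and AS17 pool 1. RIN and NOR pools lie near the WT mean. The lowest are RIN in AS17 pool 3 and NOR in AS5 pool 1 and AS17 pool 1. ACS2, loxC, Cel2 and CAB6A each spread over more than 2 log2 units. ACS2, loxC and Cel2 were chosen after their values were seen. CAB6A, the only photosynthesis gene shown, had a change of 1.17 for both lines, with CAB4 and CAB5 also above 0 and PSBO and LOC543978 below 0.

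Markers of ripe fruit flesh (7 genes) were above background on all arrays of all groups. Their mean log2 level lay between 10.1 and 10.35 in WT, 9.855 and 10.16 in AS5 and 9.823 and 10.34 in AS17. The mean of 3 leaf markers, which are the CAB genes above, was 3.238 to 3.807 in WT, 3.519 to 4.788 in AS5 and 3.697 to 4.648 in AS17. Of 2 epidermis markers, TSW12 was at or below background on all 9 arrays and LE16 above it on 4, and of 2 vascular markers CEVI-1 was at or below background on all 9 and TPx1 above it on all. Both flower markers, AG1 and TDR6, were above background on all arrays, and seed markers had 0 named genes. The part of the leaf markers in these results was not tested.

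RefSeq lists 1 entry that overlaps RIN, the fused gene MADS-RIN-MADS-MC, a fusion known from the rin mutant, and 0 that overlap NOR. Whether the RIN probe set also reads the fused transcript was not tested.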

How the data were processed

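RNA of 9 fruit pools (3 WT, 3 AS5, 3 AS17) was read on 1 Affymetrix-type array each. The deposited log2 values, 1 per probe set, were made with RMA (background correction, normalisation between arrays and probe summary), per the submitters' processing notes; version and probe definitions are not given in the sources used here. RMA is meant to make arrays alike in distribution, so a shift shared by most transcripts may not be seen. The deposited arrays still differed by group. Their highest value was 12.82 to 12.88 in WT and 12.53 to 12.64 in the silenced lines. Background was 1.415 to 1.564 in WT and 1.575 to 1.979 in the silenced lines. This difference cannot be told apart from silencing, and its part in the changes was not tested. No scanner files or detection calls were used, and the number of arrays limits the precision. The labels do not tie pools to plants, so p-values measure the spread between these pools, which may be technical.

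Of 10209 probe sets, 171 control probe sets were left out. Symbols came from the platform annotation (909 probe sets with 1 symbol), and 885 matched RefSeq assembly SLM_r2.1 by Entrez identifier, used for synonyms and overlapping entries. Background was each array's 95th percentile of 63 reporter probe sets. With limma 3.58.1 in R 4.3.3 (lmFit, eBayes), 1 mean per group was fitted over all 9 arrays and all 10038 probe sets, and p-values were adjusted by Benjamini-Hochberg over all of them, with calls at 0.05. The code was tested on simulated data.

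Members, lists, alternatives and tests were chosen with earlier results of these data known. Text names RIN, NOR, all listed transcription factors, list members past the threshold, up to 6 members per list with the highest WT mean, and the 5 genes most like each regulator; others are said to be chosen after their values were seen. For a gene with several probe sets, the 1 with the highest mean stands for it. TAGL1 was taken out of the green-stage list after the data were seen. Probe, promoter and protein sequences were not used here. Plots used matplotlib 3.10.9 (Python 3.11.15).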

Additional observations from a re-analysis of the deposited data

How the results depend on the processing

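RIN and NOR were tested in 4 contrasts under 20 other settings each, 160 values in all. Among these, exact permutation tests of 3 pools against 3 could not pass 0.05, since their smallest p is 0.10. None of the 160 passed (smallest adjusted p = 0.498 for RIN and 0.522 for NOR). Of them, 74 equal the reported estimate, since those settings change only the test or leave out an array that the estimate does not use. Of the other 86, 71 kept their sign and 15 changed it, those 15 all within 0.17 of 0. RIN in AS5 was -0.00067 after quantile normalisation. NOR in AS5 was 0.065 with array weights. Without both AS5 pool 3 and AS17 pool 1, NOR was 0.0044 for both lines, 0.056 in AS17 and 0.10 between the lines. With 1 array left out, RIN ran from -0.062 to 0.052 for both lines, 0.016 to 0.11 in AS5, -0.18 to 0.051 in AS17 and -0.23 to -0.0022 between the lines. NOR ran from -0.17 to 0.021, -0.16 to 0.17, -0.32 to 0.056 and -0.34 to 0.071 in the same order.

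Calls over all probe sets, 128 for both lines, 38 in AS5, 135 in AS17 and 0 between lines, were 556, 200 and 311 with array weights for the first 3. The AS17 count was 47 with only its own groups in the fit. At a threshold of 0.10 the 4 counts were 252, 58, 354 and 1. Without AS5 pool 3 and AS17 pool 1 the counts for both lines and AS17 were 208 and 315. With 1 array left out the counts ran from 27 to 110 for both lines, 18 to 38 in AS5 and 20 to 140 in AS17, and stayed at 0 between lines. Each of the 48 genes of the ripening lists was read by its brightest probe set. Of them, 0 passed for both lines, 2 with array weights (ACS2 and TDR8) and 1 with the replicate block (AG1). The replicate block on pool number gave 78 calls for both lines and 74 in AS17. The pool numbers share only a number: deviations of 9 same-numbered pairs correlated at -0.379 to 0.546, and 2 of 9 arrays correlated best with their own number. Causes were not tested.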

Other observations

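Among the targets of RIN and other ripening genes, several stood further from WT than RIN or NOR did, without passing the adjusted test. They were chosen after their values were seen. ACS2, which makes the precursor of ripening ethylene, stood at 9.64, 8.58 and 9.61 in WT pools, 10.85, 10.53 and 9.86 in AS5 and 10.02, 10.70 and 10.32 in AS17. All 6 silenced pools were above WT, where 9.06% of all probe sets had no overlap between silenced pools and WT. The change of ACS2 for both lines was 1.10 (SE 0.30, limma adjusted p = 0.131). It passed with array weights (adjusted p = 0.0392). The lipoxygenase gene loxC, of fruit aroma, stood at 8.04, 8.23 and 6.81 in WT, 5.87, 6.42 and 5.62 in AS5 and 5.73, 7.04 and 7.39 in AS17. Its change was -1.35 (SE 0.42, adjusted p = 0.181), with WT pool 3 inside the range of AS17.

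Cel2, a cellulase gene of ripe fruit, stood at 7.29, 7.14 and 6.78 in WT, 7.86, 6.98 and 6.51 in AS5 and 7.94, 8.91 and 9.89 in AS17. Its AS17 pools were all above the WT and AS5 pools, where 21.6% of all probe sets had no overlap between AS17 and WT. The change in AS17 was 1.84 (SE 0.48, limma adjusted p = 0.107), and 0.05 in AS5. It passed in AS17 with array weights (2.03, adjusted p = 0.0366) and without AS5 pool 3 and AS17 pool 1 (2.33, adjusted p = 0.0274). The difference between the lines, 1.79, did not pass (adjusted p = 0.764). PMEU1, a pectin methylesterase gene, had an estimate of 1.63 (SE 0.56, adjusted p = 0.214) and was highest in AS5 pool 3 (7.40) and AS17 pool 1 (7.35).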
